A study of Drosophila melanogaster with 4 samples.

Results

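The nuclear genes whose symbols begin with ND-, Sdh, UQCR-, COX plus a digit, or ATPsyn encode subunits of the 5 oxidative phosphorylation complexes, and they were compared between embryos lacking the 8-miR cluster and w1118 embryos. Array probes were assigned to them through the annotation ID that each probe carries. The symbol rule took 88 genes, and 86 of them had at least 1 of 127 probes, out of 13059 genes with a named probe. UQCR-6.4L and COX7CL had none. A gene counted as measured where a probe was well above background in 1 genotype in at least 2 of 3 replicates, which held for 70 of the 86 genes. By complex, 35 of 40 genes were measured for complex I, 6 of 8 for complex II, 6 of 9 for complex III, 10 of 16 for complex IV and 13 of 15 for complex V. The rule also takes Sdhaf3, by its name an assembly factor of succinate dehydrogenase and no subunit, and it misses subunits with other names, which are described further down.

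Oxidative phosphorylation is the last stage of respiration in the inner mitochondrial membrane. Complex I (NADH dehydrogenase) and complex II (succinate dehydrogenase) pass electrons to coenzyme Q, complex III hands them on to cytochrome c, complex IV (cytochrome c oxidase) reduces oxygen, and complex V (ATP synthase) makes ATP from the proton gradient that complexes I, III and IV build. All complexes except complex II also hold subunits encoded by mitochondrial DNA, so nuclear and mitochondrial transcripts are needed together. The early Drosophila embryo inherits its mitochondria, and many transcripts for them, from the egg. Roles of accessory subunits are given below from their mammalian counterparts.

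The null embryos are labelled as lacking a cluster of microRNA genes in a w1118 genetic background. Their controls were w1118, a laboratory strain without functional white, labelled as wild type. Flies of both kinds were kept at 25 degrees C, laid eggs for 2 h, and total RNA of whole embryos was taken 6 to 8 h after egg laying. The labels disagree on the mutant: titles and source names give the 8-miR cluster null, the genotype field gives miR-8 cluster null, and the treatment text calls the mutants homozygous for ectopic mir-3. Of the 8 microRNA genes of the cluster, 0 had a named probe, so the deletion could not be checked on these arrays.

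Each of 3 biological replicates, stated to be isolated independently, set 1 extract of null embryos against 1 of w1118 embryos on a 2-colour Agilent array. Replicate 1 was hybridised again with exchanged dyes, so there were 4 arrays, and replicates 2 and 3 carried the null in Cy3 only. The arrays of replicate 1 shared slide 1, and those of replicates 2 and 3 shared slide 2. Between 58.0% and 65.8% of spots were well above background in the null channel, against 56.7% to 65.5% in the w1118 channel. The correlation of ratios over kept probes was 0.940 to 0.957 among the 3 arrays with the null in Cy3, and 0.824 to 0.883 between them and the dye-swap array. The dye-swap value is therefore given apart below. The RNA came from whole embryos, in which fewer cells of a type and less RNA per cell cannot be told apart.

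Values are log2 ratios of null over w1118, a direction opposite to the authors' value table, with the SD over 3 replicates. A gene was called where the Benjamini-Hochberg adjusted p of limma over all 9677 genes tested was under 0.05, and all adjusted p-values of genes come from that fit. Of the 70 measured oxidative phosphorylation genes, 25 were higher in null embryos (35.7%) and 10 were lower (14.3%), while 35 were not called. Among all genes tested, 28.1% were called higher and 26.4% lower, and 54.6% were called in either direction. The 70 genes were thus called about as often as other genes (50%). Their median ratio was 0.08, against 0.01 for all genes, and 48 of 70 (68.6%) had a ratio above 0, against 52.0% of all genes. Where arrays were only centred on their median in place of loess, the median of the 70 genes was 0.0043 and that of all genes was -0.02. There 14 of the 70 genes were higher and 8 lower, and 2170 and 2530 of all genes, against 2724 and 2555 as reported. On slide 1 alone the median was 0.06 and on slide 2 alone 0.09. With replicate 3 left out, 10 of the 70 genes were higher and 5 lower, and 1752 and 1696 of all genes. With replicate 2 left out, these were 16 and 7, and 2135 and 2111 of all genes.

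Most of these differences were small. The measured genes ranged from -0.78 to 2.20, and 58 of the 70 differed by less than 1.2-fold, 23 of the 35 called genes among them. Only COX4 and SdhD were called at 1.5-fold or more, which is 2 of 70 genes, against 11.0% of all genes tested. Genes called higher and positive on all 4 arrays were 19 of the 70 (27.1%), against 24.6% of all genes tested, and genes called lower and negative on all 4 were 9 of the 70 (12.9%), against 23.1%. Among called genes alone these were 76.0% of the higher and 90% of the lower oxidative phosphorylation genes, against 87.5% in each direction for all genes. The dye-swap array had the opposite sign for 6 called genes, which were ND-MWFE, ND-13A, UQCR-C2, UQCR-14, ATPsynF and ATPsynO. All of these were called higher. Among all called genes 642 (12.2%) had the opposite sign there.

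**Figure D1:**
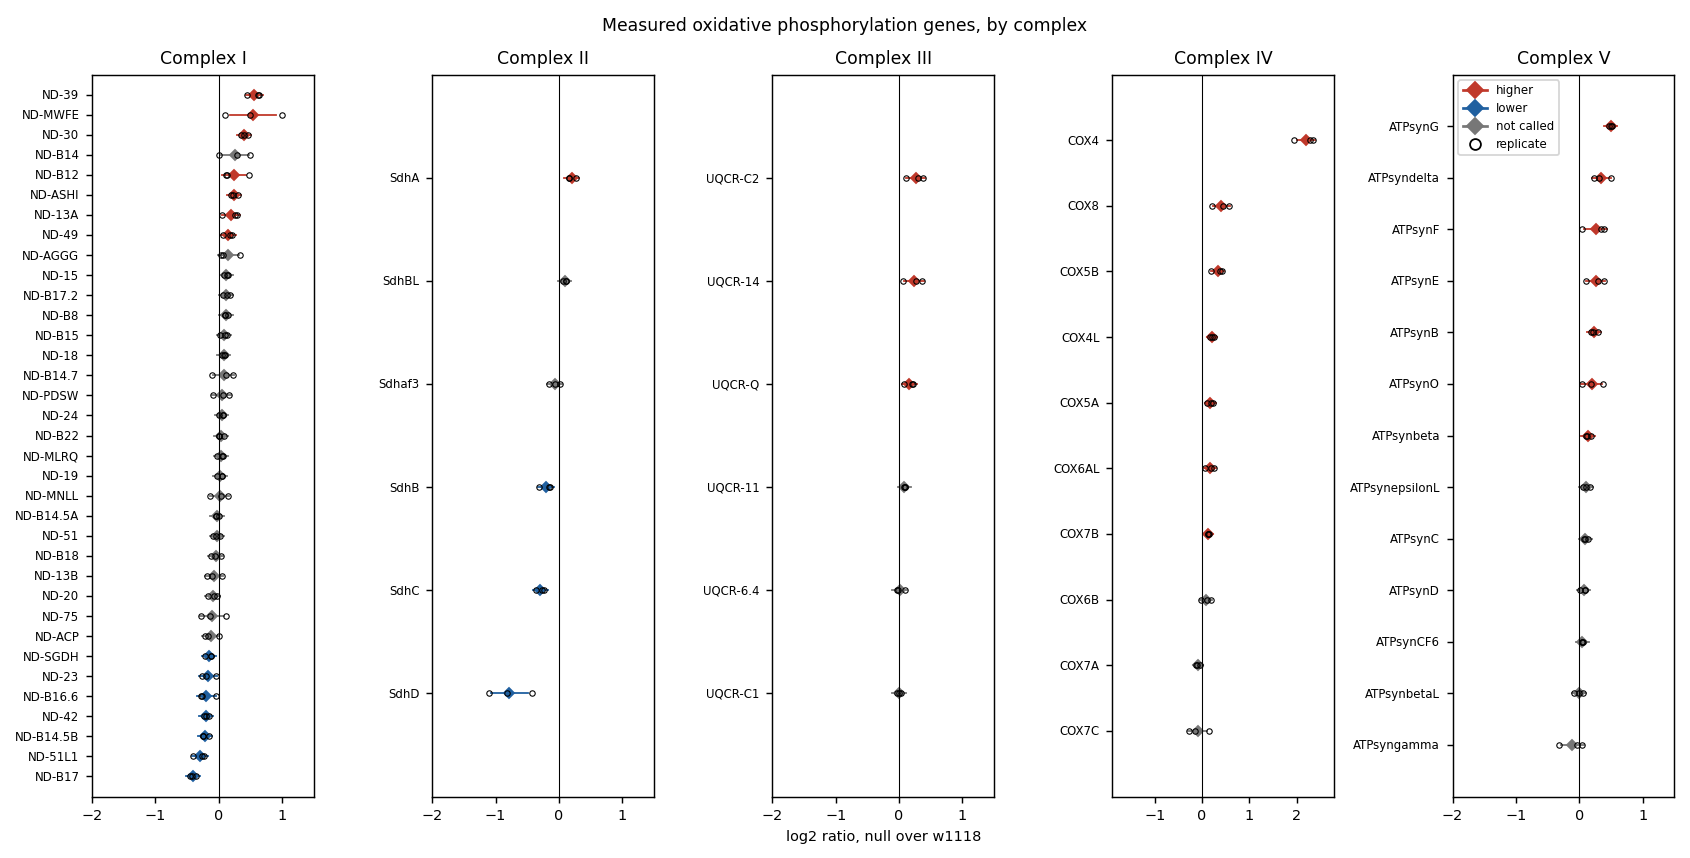
Log2 ratio (null over w1118, x axis) of each of the 70 measured genes, by complex, with diamonds for the mean, bars for limma's 95% interval and open circles for the 3 replicates. Red marks genes called higher in null embryos, blue genes called lower and grey genes not called. The complex IV panel has its own x range because COX4 lies at 2.20.

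The complexes differed in the balance of calls. Among genes that the symbol rule takes, complexes III, IV and V had 3, 7 and 7 of 6, 10 and 13 called higher by limma. In each 0 were called lower, and the counts were the same at an unadjusted p under 0.05. An ordinary test without moderation called 1, 3 and 1 of their genes higher and 0 lower. Of their subunits and copies outside the rule, blw and RFeSP were higher and cype, sun, Cyt-c1L, CYTB and COX1 lower. Among all genes tested 28.1% were called higher and 26.4% lower. Complex I had 7 higher and 7 lower, and complex II had 1 higher and 3 lower. Median ratios were 0.03 for complex I, -0.14 for complex II, 0.12 for complex III, 0.17 for complex IV and 0.14 for complex V, and under median centring complex I turned to -0.02. On the dye-swap array alone the medians of complexes II, IV and V kept their sign at -0.18, 0.16 and 0.05. Those of complexes I and III did not, at -0.02 and -0.06. No test was made of the differences between complexes.

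**Figure D2:**
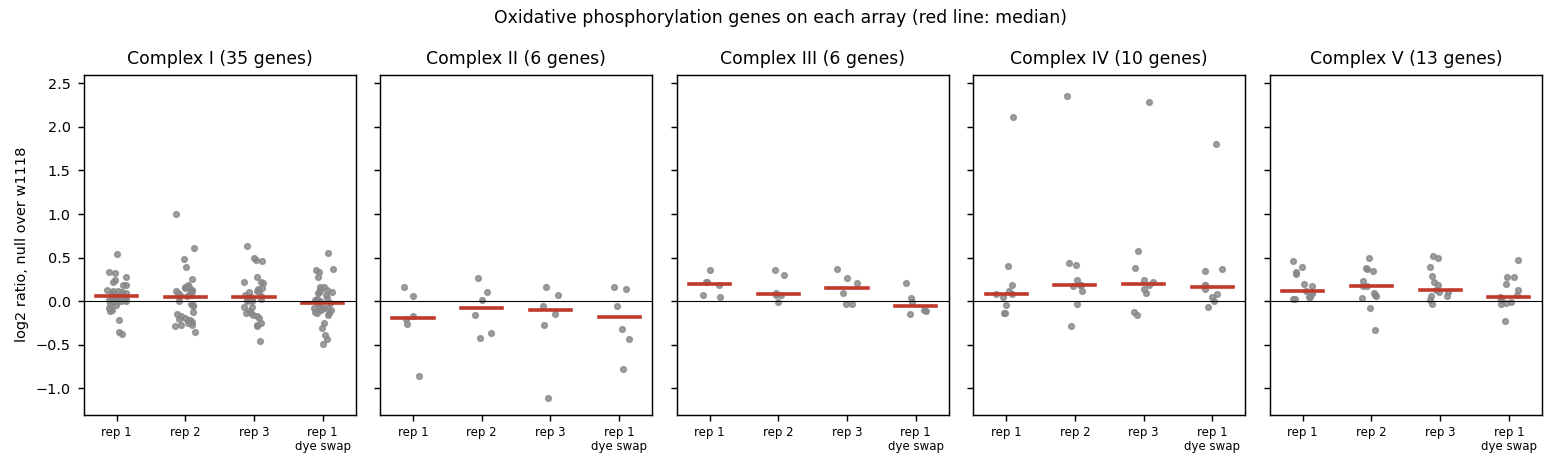
Log2 ratio (null over w1118, y axis) of each measured gene on each of the 4 arrays, by complex, with a red line at the median. The dye-swap medians of complexes I and III lie below 0 at -0.02 and -0.06, while the medians of complexes IV and V are above 0 on all 4 arrays.

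Marker genes of other cell types also differed between the genotypes, where 28.1% of all genes tested were called higher and 26.4% lower. Of 12 muscle structure genes 9 were lower and 2 higher, with a median of -0.49, and the summed signal of the list was 51717 to 54733 in null embryos over the 4 arrays, against 53489 to 58793 in w1118 embryos. Of 10 measured genes of follicle cells, chorion and yolk (13 listed) 6 were lower and 1 higher. Their summed signal was 1226 to 1266 in null embryos, against 2233 to 2437 in w1118 embryos, and the chorion genes Cp16, Cp19 and Cp38 did not pass the filter on background. Of 22 testis genes 7 were measured, with 3 higher and 2 lower and a summed signal of 2948 to 3231 in null embryos, against 2130 to 2486 in w1118 embryos. The other 15 testis genes did not pass the filter, the spermatid genes dj, Mst87F and Mst98Ca among them. Of 8 embryonic segmentation genes all were above background on all arrays, and 3 (inv, hh and en) were lower. Their summed signal was 40250 to 44224 in null embryos, against 45469 to 47702 in w1118 embryos. The part of these cell types in the results on mitochondrial genes was not tested.

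Complex I carried calls in both directions among its core and its accessory subunits. Of 7 core subunits 2 were higher and 1 lower, and of 27 accessory subunits 5 were higher and 5 lower. Over all 35 measured genes of complex I 20% were higher and 20% lower, against 28.1% and 26.4% of all genes tested. ND-39, an accessory subunit of the matrix arm, had ratios of 0.55, 0.61 and 0.63 on the arrays of replicates 1, 2 and 3 and 0.33 with exchanged dyes. Null embryos had more on every array, by 1.48-fold on average (0.56 ± 0.11, SD, n = 3, adjusted p = 0.000279). A further probe of ND-39 read 0.62, so its probes gave the same picture. ND-30, a core subunit of the arm that carries the iron-sulphur clusters, had 0.34, 0.39 and 0.46 on the replicate arrays and 0.35 on the swap (0.40 ± 0.06, adjusted p = 0.000633). Together with ATPsynG, COX4 and ND-B17, it was among the 4 genes called under each of 19 alternative analyses. Some of the 19 repeat the reported ratios or each other, as listed at the end.

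The other genes of complex I that were called higher had smaller or less even ratios. ND-MWFE, a small membrane-arm subunit needed for assembly in mammals, had 0.27, 1.00 and 0.50 on the replicate arrays and -0.07 on the swap (0.53 ± 0.45, adjusted p = 0.0243). Its arrays thus disagreed in sign, its other probe read -0.12 and was not called, and without replicate 3 the gene was not called (adjusted p = 0.0515). ND-B12, ND-ASHI, ND-13A and ND-49 were called at 0.24, 0.24, 0.19 and 0.14. Of these, ND-ASHI alone passed with each replicate left out in turn. ND-B14, which sits at the matrix arm, was just outside the threshold by its brightest probe (0.26 ± 0.25, adjusted p = 0.051), while its other probe read 0.66, 0.66 and 0.72 on the replicate arrays and 0.70 on the swap and was called higher at 0.69.

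Among the genes of complex I that were lower, ND-B17 had the lowest ratio. This membrane-arm subunit had -0.36, -0.36 and -0.46 on the replicate arrays and -0.50 on the swap (-0.41 ± 0.05, adjusted p = 0.000502). ND-51L1, a copy of the gene for the NADH-binding flavoprotein subunit ND-51, had -0.37, -0.24 and -0.27 on the replicate arrays and -0.43 on the swap (-0.30 ± 0.09, adjusted p = 0.0031). ND-51L1 was dim, with mean log2 signals of 6.45 in null and 6.75 in w1118 embryos. Its ratio ran from -0.85 to -0.25 over 21 alternative analyses. ND-51 itself was not called at -0.03. ND-B14.5B (-0.22), ND-42 (-0.20), ND-B16.6 (-0.20), ND-23 (-0.17) and ND-SGDH (-0.16) were also lower, and each of these 5 lost its call in at least 1 of the 3 fits that left out a replicate. The other probes of ND-B16.6 (-0.07 and -0.05) and of ND-SGDH (-0.20) were not called. ND-23 holds iron-sulphur clusters, and ND-B16.6 is the fly counterpart of GRIM-19. The other core subunits ND-75, ND-51, ND-24 and ND-20 were not called by their brightest probes, between -0.11 and 0.04, although a second probe of ND-75 was called higher at 0.26.

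ND-AGGG, a small membrane-arm subunit, was singled out after its values were seen. Its brightest probe gave 0.12, 0.07 and 0.03 on the replicate arrays and 0.55 on the swap and was not called (0.14 ± 0.17, adjusted p = 0.118). Both of its other probes were far lower in null embryos, at -1.88 ± 0.06 and -2.03 ± 0.04. On probe A_09_P216020 the log2 signal was 9.21, 9.14 and 9.15 in null embryos of replicates 1, 2 and 3 and 9.14 on the swap, against 11.26, 11.15 and 11.15 in w1118 embryos and 11.26 on the swap. The channels did not overlap, and the second of these probes, A_09_P001236, showed the same. All 3 probes carry the ID of the same transcript, CG40002-RA. With the mean of its probes ND-AGGG was called lower, at -1.26 (adjusted p = 3.17e-06).

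Complex II has only nuclear subunits and was the complex with more genes lower than higher. SdhD, 1 of its 2 membrane anchors, had -0.86, -0.42 and -1.11 on the replicate arrays and -0.78 on the swap. In log2 signal it read 8.69, 8.90 and 8.92 in null embryos of replicates 1, 2 and 3, against 9.55, 9.32 and 10.02 in the paired w1118 embryos. It was lower in the null on every array, to a fold of 0.581 (-0.78 ± 0.34, adjusted p = 0.00192). SdhC, the other anchor, had -0.17, -0.36 and -0.27 on the replicate arrays and -0.31 on the swap (-0.29 ± 0.06, adjusted p = 0.0025). SdhB, the iron-sulphur subunit, was lower by less (-0.21 ± 0.10, adjusted p = 0.0165), and its other probe read -0.44. These 3 genes passed in all 3 fits that left out a replicate.

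SdhA, the flavoprotein that oxidises succinate, went the other way within the same complex. It had 0.16, 0.26 and 0.17 on the replicate arrays and 0.17 on the swap (0.20 ± 0.06, adjusted p = 0.0122). Its other probe read 0.23, so both probes of SdhA were above 0 where both probes of SdhB were below it. Without replicate 2 or without replicate 3 SdhA was not called (adjusted p = 0.0995 and 0.0621). The copy SdhBL (0.09) and the assembly factor Sdhaf3 (-0.07) were not called by their brightest probes, although a second probe of Sdhaf3 was called lower at -0.16.

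In complex III, UQCR-C2, UQCR-14 and UQCR-Q were called higher, and each lost its call when 1 replicate was left out. UQCR-C2, a core protein on the matrix side, had 0.36, 0.30 and 0.37 on the replicate arrays and -0.15 on the swap (0.26 ± 0.14, adjusted p = 0.0125). Its other probe showed the same split, with 0.25, 0.23 and 0.34 on the replicate arrays and -0.09 on the swap. UQCR-14, a small matrix-side subunit, had 0.23, 0.36 and 0.26 on the replicate arrays and -0.10 on the swap (0.23 ± 0.15, adjusted p = 0.0247). Both genes were therefore higher on the 3 arrays with the null in Cy3 and lower on the array with the null in Cy5. UQCR-Q, a small membrane subunit, was positive on all 4 arrays (0.16 ± 0.08, adjusted p = 0.031), and its other probe read 0.27. UQCR-11, the acidic subunit at the cytochrome c docking site, was not called at 0.08, with a second probe called lower at -0.18. UQCR-6.4 was not called at 0.01, and UQCR-C1, the other core protein, had a 95% interval of -0.11 to 0.11.

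Complex IV held the highest ratio among all measured oxidative phosphorylation genes, and it came from 1 of 2 probes. COX4 encodes a regulatory subunit that contacts the catalytic core. On probe A_09_P142535 the log2 signal was 15.19, 15.08 and 15.07 in null embryos of replicates 1, 2 and 3 and 14.99 on the swap, against 13.08, 12.73 and 12.78 in w1118 embryos and 13.19 on the swap. The channels did not overlap, and the ratio was 2.20 ± 0.21 (4.59-fold, adjusted p = 3.81e-06). Probe A_09_P023636, named for the same transcript (CG10664-RA), read 13.55, 13.54 and 13.47 in null embryos of replicates 1, 2 and 3 and 13.55 on the swap, against 13.53, 13.55 and 13.49 in w1118 embryos and 13.39 on the swap. There the channels overlapped and the ratio was 0.02 ± 0.06 (limma over all kept probes, adjusted p = 0.719).

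The probes of COX4 differed by 2.09, 2.36 and 2.31 on the replicate arrays and by 1.64 on the swap. With the mean of both probes COX4 was called at 1.11. Of 3104 genes with at least 2 kept probes, 29 (0.934%) had probes that spanned 2 log2 units or more, and COX4 and ND-AGGG were 2 of them. The probe sequences were not used here, so which part of the transcript each probe binds, or whether it binds a further gene, was not tested.

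**Figure D3:**
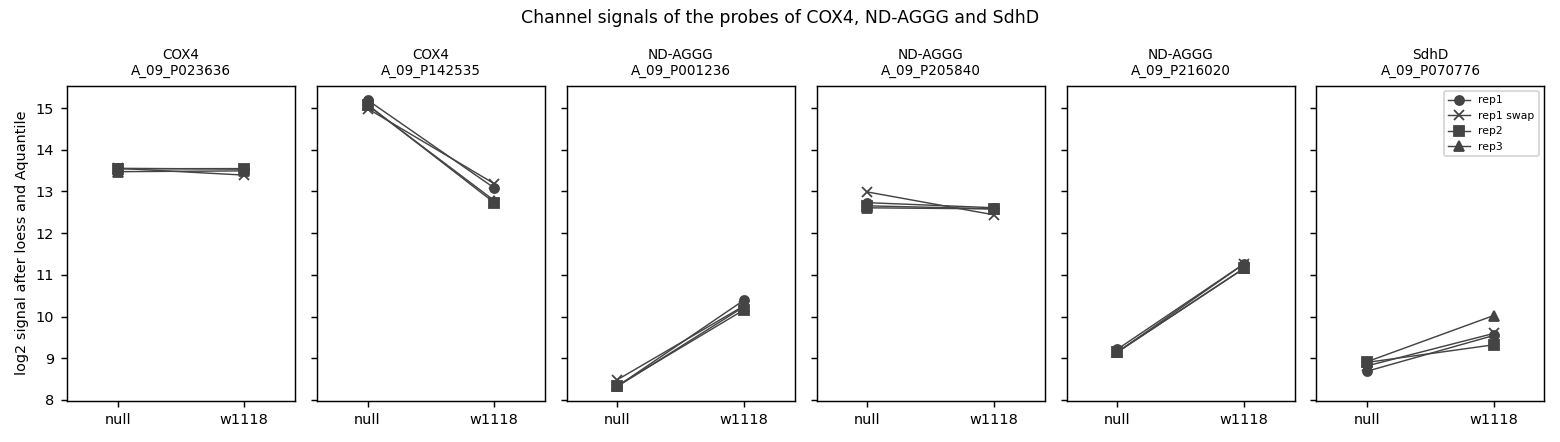
Log2 channel signal (y axis) in null and w1118 embryos for each kept probe of COX4, ND-AGGG and SdhD, with 1 line per array. Of the COX4 probes the right one is higher in null than in w1118 embryos on all 4 arrays and the left one is level, and 2 of the 3 ND-AGGG probes are lower in null embryos.

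The other complex IV genes that were called were all higher. COX8, a small membrane subunit, had 0.40, 0.43 and 0.57 on the replicate arrays and 0.01 on the swap (0.40 ± 0.19, adjusted p = 0.0042). COX5B, which binds zinc on the matrix side, had 0.19, 0.41 and 0.38 on the replicate arrays and 0.19 on the swap (0.33 ± 0.12, adjusted p = 0.00371). Both passed in all 3 fits that left out a replicate, and COX8 was near 0 on the array with exchanged dyes. COX5A (0.17), the copy COX6AL (0.16) and COX7B (0.13) were called with smaller ratios and passed only without replicate 1 among those 3 fits. COX6AL was dim, with mean log2 signals of 6.59 in null and 6.43 in w1118 embryos. Over 20 alternative analyses its ratio ran from 0.06 to 0.93. The other probe of COX5A was called higher at 0.16, while those of COX6AL (0.06) and COX7B (0.01) were not called. COX4L, the copy of COX4, was called at 0.21 ± 0.03 (adjusted p = 0.00737) and not without replicate 3 (adjusted p = 0.063). Its ratio ran from 0.17 to 0.46 over 21 alternative analyses.

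COX6B, COX7A and COX7C were not called by their brightest probes, at 0.09, -0.09 and -0.10. For COX7C, a small membrane subunit, both further probes were called higher, at 0.34 and 0.28. The mean of its 3 probes was called higher at 0.18 (adjusted p = 0.0141), so its direction depended on the probe.

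Complex V had 7 of 13 measured genes called higher. ATPsynG, a membrane subunit at the site where ATP synthases pair, was the most even of all called genes in complex V, with 0.46, 0.50 and 0.52 on the replicate arrays and 0.48 on the swap (0.50 ± 0.03, adjusted p = 0.000175). Its other probe was called higher at 0.26 with -0.28 on the swap. ATPsyndelta, a subunit of the rotating central stalk, had 0.33, 0.23 and 0.50 on the replicate arrays and 0.28 on the swap (0.35 ± 0.13, adjusted p = 0.00362). ATPsynB, of the peripheral stalk that holds the catalytic head still, was higher at 0.23 ± 0.06 (adjusted p = 0.00646), with 0.35 on its other probe. By their brightest probes these 3 genes were positive on all arrays, and they passed in all 3 fits that left out a replicate.

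The remaining calls of complex V leaned on fewer arrays. ATPsynF had 0.31, 0.35 and 0.40 on the replicate arrays and -0.23 on the swap (0.26 ± 0.19, adjusted p = 0.0253). ATPsynE had 0.20, 0.38 and 0.29 on the replicate arrays and 0.01 on the swap (0.26 ± 0.14, adjusted p = 0.0138). ATPsynF and ATPsynE are both membrane subunits, and without replicate 3 neither was called. ATPsynO, which joins the peripheral stalk to the head, was called at 0.20 and ATPsynbeta, the catalytic subunit, at 0.14, and neither passed without replicate 2 or without replicate 3. The 4 probes of ATPsynbeta ran from -0.08 to 0.23, and the mean of its probes was not called. ATPsyngamma, the rotor shaft, had -0.11 ± 0.19 and was not called, nor were ATPsynC, ATPsynD and ATPsynCF6 between 0.05 and 0.09, although 1 of 3 probes of ATPsynC was called higher at 0.16.

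**Figure D4:**
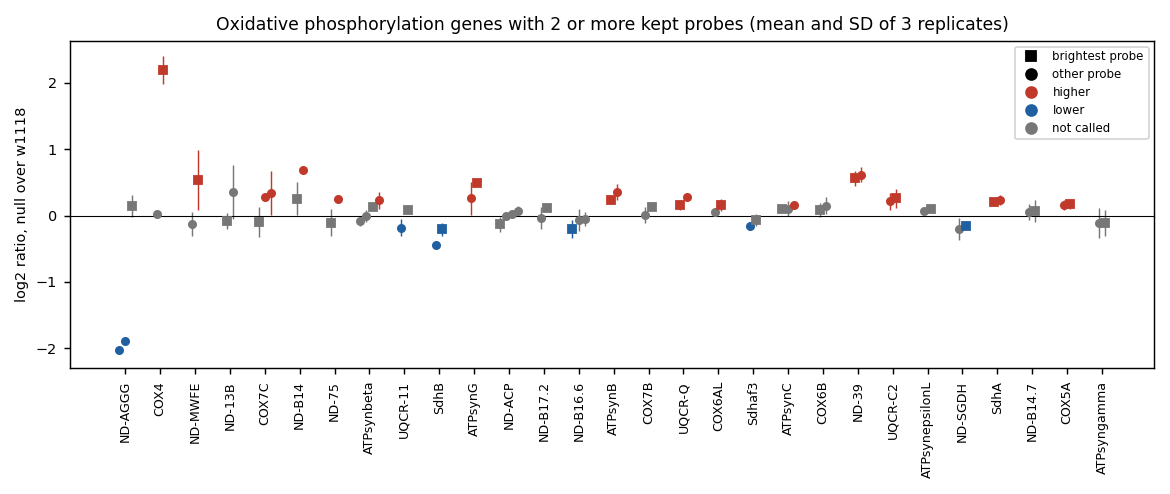
Log2 ratio (null over w1118, y axis; mean and SD of 3 replicates) of every kept probe of the 29 genes with 2 or more kept probes, with squares for the brightest probe and colours for the call over all kept probes. ND-AGGG and COX4 span more than 2 units, while 21 of the 29 genes span under 0.3.

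Probes of 1 gene otherwise lay close together. Over the 29 genes with at least 2 kept probes the median difference between the highest and the lowest was 0.123, against 0.186 over all 3104 such genes. For 9 of the 29 the probes differed in sign, and for none did 2 probes pass in opposite directions. Of all 107 kept probes of oxidative phosphorylation genes 34 were called higher and 15 lower, where 49.6% of all kept probes were called in either direction.

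Many oxidative phosphorylation genes of Drosophila have a copy elsewhere in the genome, several of which are known for expression in testis, and 24 of the 88 genes are such copies by their names. All 64 genes that are not copies were measured. Of the 22 copies with a probe 6 were measured: ND-51L1, SdhBL, COX4L, COX6AL, ATPsynbetaL and ATPsynepsilonL. The other 16 included 13 whose probes were above background on none of the 4 arrays in either genotype (0 arrays), and the exceptions were ND-20L, SdhAL and COX7AL with 0, 2 and 1 arrays in null embryos, against 2, 2 and 0 in w1118 embryos. Of the 6 measured copies COX4L and COX6AL were higher and ND-51L1 lower, and ATPsynepsilonL and ATPsynbetaL were not called at 0.11 and -0.0055. SdhBL, COX6AL and ATPsynbetaL were the only measured genes not above background in both channels of all 4 arrays. Whether probes of a gene and its copy share signal was not tested.

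Position on the chromosomes was a property that the symbols did not use. Among all genes tested 28.1% were called higher and 26.4% lower, and the shares of all genes on each arm were not compared. Of 14 measured genes on 3L 7 were higher and 1 lower, and of 15 on 3R 3 were higher and 4 lower. The lower ones on 3R were SdhC, SdhD, ND-23 and ND-42. On 2L 4 of 12 genes were higher and 2 lower, on 2R 6 of 14 and 2, and on X 3 of 13 and 1. Both genes on chromosome 4, ND-49 and ATPsynbeta, were called higher (limma, adjusted p = 0.0458 and 0.0407). ND-49 lost its call in every fit that left out a replicate. COX5B lies 1 coding gene away from its copy COX5BL, which was not above background on any array.

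Subunits with other names were called in both directions, as were all genes tested (28.1% higher and 26.4% lower). Of 8 measured ones 2 were higher (25%) and 3 lower (37.5%). blw, the alpha subunit that forms the ATP synthase head with ATPsynbeta, was higher at 0.34 ± 0.17 (adjusted p = 0.00648) with -0.07 on the swap, and RFeSP, the Rieske iron-sulphur protein of complex III, at 0.16 ± 0.07 (adjusted p = 0.0314). cype, a small subunit of complex IV, had -0.43, -0.54 and -0.54 on the replicate arrays and -0.52 on the swap (-0.52 ± 0.04, adjusted p = 0.000153), and its other probe read -1.44. It was thus lower in the null on all arrays, unlike the 7 called complex IV genes above. Cyt-c1L, a copy of the gene for cytochrome c1, was lower at -0.39, and sun, the epsilon subunit of ATP synthase, at -0.21, although its other probe read 0.04 and was not called. Cyt-c1, levy and ox were not called. Of the 2 cytochrome c genes, the electron carriers between complexes III and IV, Cyt-c-d was lower at -0.18, with a further probe not called at -0.13, and Cyt-c-p was not called at -0.17.

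Of 13 subunits encoded by mitochondrial DNA 10 were measured, with 1 higher (10%) and 2 lower (20%), against 28.1% and 26.4% of all genes tested. CYTB, the catalytic subunit of complex III, had -0.49, -0.64 and -0.56 on the replicate arrays and -0.16 on the swap (-0.51 ± 0.16, adjusted p = 0.00112), and its other probe read -0.42. ND3 of complex I was higher at 0.46 ± 0.21 (adjusted p = 0.00331), with -0.04 on the swap. COX1, the catalytic subunit of complex IV, was lower at -0.16 (adjusted p = 0.031), with 0.06 on the swap, and its other 2 probes were not called at -0.17 and -0.07. The direction of the last pair did not hold on the array with exchanged dyes, while CYTB was below 0 on all 4. COX3 of complex IV was not called by its brightest probe (0.30 ± 0.44), but both of its other probes were called lower, at -0.37 and -0.35, so its direction depended on the probe.

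Genes that supply electrons to the chain were also examined. Among all genes tested 28.1% were called higher and 26.4% lower. Of 18 genes of pyruvate dehydrogenase and the TCA cycle 6 were higher (33.3%) and 3 lower (16.7%), with a median of 0.02. Mdh2, the mitochondrial malate dehydrogenase, had 0.86, 0.93 and 0.93 on the replicate arrays and 1.05 on the swap (0.94 ± 0.01, adjusted p = 1.02e-05). Idh3g, a subunit of the NAD-dependent isocitrate dehydrogenase, was higher at 0.87 by its brightest probe, but its other 3 probes, each named for another transcript, ran from -1.06, called lower, to 0.55, called higher. Men, malic enzyme, was higher at 0.47, and Idh, muc and PCB were lower at -0.28, -0.24 and -0.16, although the other probe of PCB read 0.10 and was not called. Of 11 genes for coenzyme Q synthesis and other electron donors 5 were higher (45.5%) and 2 lower (18.2%). The highest was wal, the alpha subunit of the electron transfer flavoprotein, at 0.92 ± 0.14 (adjusted p = 5.59e-05), while Etfb, its partner subunit, was lower at -0.36 ± 0.05.

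Of 13 measured genes listed for glycolysis, which feeds pyruvate to mitochondria, 4 were higher (30.8%) and 6 lower (46.2%), with a median of -0.09. The shares over all genes tested were 28.1% and 26.4%. Among the 6 lower was ERR at -0.20, which is a nuclear receptor and not an enzyme. Tpi (triose phosphate isomerase) was lower at -0.89 ± 0.21 by its brightest probe, whereas its other probe read -0.14 and was not called. Ldh, lactate dehydrogenase, was lower at -0.59 ± 0.09 (adjusted p = 0.000177) and Gapdh2 at -0.48. PyK, pyruvate kinase, was higher at 0.62 ± 0.05 (adjusted p = 8.42e-05), with 0.63 on its other probe, and Pglym78 and Ald1 were higher at 0.27 and 0.23. Pglym78 had 1 further probe that was not called (0.05) and Ald1 had 3, between 0.02 and 0.12. Another probe of Ald1 was called higher at 0.53.

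Of 22 carriers, import and cristae genes 3 were higher (13.6%) and 8 lower (36.4%), against 28.1% and 26.4% of all genes tested. The lowest was Ant2, an ADP/ATP carrier, at -0.48 ± 0.07 (adjusted p = 0.00032), whereas its paralog sesB was higher at 0.26 ± 0.03 (adjusted p = 0.0033). Tim10, an import chaperone, was lower at -0.30 with 0.20 on the swap and 0.01 on its other probe, blp was lower at -0.29, and Tom7 and porin were higher at 0.29 and 0.24. Of 8 assembly factors with other names, Surf1 and Ttc19 were higher at 0.33 each and CIA30 was lower at -0.31, with the sign of Ttc19 (-0.11) and CIA30 (0.04) turned on the swap. Of 11 genes for replication and transcription of mitochondrial DNA, TFAM, which packages that DNA, was lower at -0.42 ± 0.02 (adjusted p = 0.00035), and mtDNA-helicase and bsf were higher at 0.42 and 0.27. Of 6 nuclear genes listed as regulators of mitochondria, srl, the fly PGC-1 homolog, was lower at -0.50 ± 0.23 (adjusted p = 0.00314) with 0.08 on the swap. ewg was lower at -0.29 with 0.13 on the swap, and of its other probes 1 was called lower at -0.26 and 1 was not called at 0.03. Pink1 was lower at -0.24, and park was higher at 0.24, with 2 further probes not called at 0.13 and 0.06. Of 3 measured uncoupling carriers Bmcp was higher at 0.20, with 0.53 on its other probe, also called higher, and Ucp4C was lower at -0.18.

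Genes of the mitochondrial and the cytoplasmic ribosome were set beside the oxidative phosphorylation genes. Of 70 measured mitochondrial ribosomal protein genes 21 were higher (30%) and 10 lower (14.3%), with a median of 0.03. Among all genes tested these shares were 28.1% and 26.4%. Of 91 measured cytoplasmic ribosomal protein genes 7 were higher (7.7%) and 45 lower (49.5%). Their median was -0.17, but it was 0.02 with exchanged dyes. Oxidative phosphorylation genes had medians of 0.08, 0.08 and 0.08 on the replicate arrays and 0.02 on the swap. With exchanged dyes mitochondrial ribosomal proteins had a median of 0.0049. The gap between oxidative phosphorylation and cytoplasmic ribosomal protein genes was thus nearly absent on that array, and no test of it was made.

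**Figure D5:**
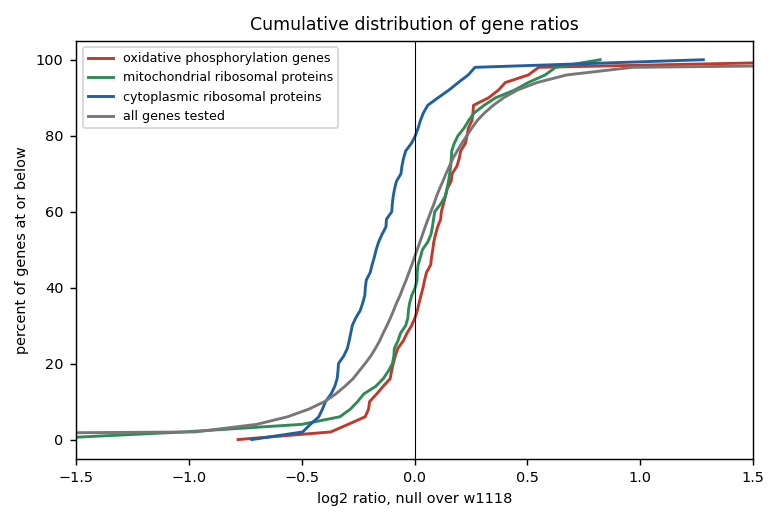
Cumulative percent of genes (y axis) at or below each log2 ratio of null over w1118 (x axis) for oxidative phosphorylation genes, mitochondrial and cytoplasmic ribosomal protein genes and all genes tested. The curve of the oxidative phosphorylation genes crosses the middle of the y axis at 0.08, against -0.17 for cytoplasmic ribosomal proteins and 0.01 for all genes. COX4 at 2.20 lies beyond the plotted range.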

How the data were processed

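Total RNA of 3 pairs of extracts was measured on 4 2-colour arrays. Per the file headers, the scans were quantified by the authors in Feature Extraction 10.1.1.1, made by Agilent. Raw median intensity of each spot and its local background was taken from the deposited scanner files. Processed signals there had the background removed and the dyes balanced, and their log10 ratio, also deposited, is Cy5 over Cy3. The authors' log2 table has unstated scale and direction. Set against processed signals its 4 columns had slopes of -1.00 for null over w1118 and medians of -0.137, 0.0707, 0.128 and -0.0411, so it runs w1118 over null with no further centring.

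In R 4.3.3, limma 3.58.1 removed the background of the median signals (normexp with an offset of 50), and ratios were normalized by loess within each array, with control and outlier spots at weight 0. Ratios were turned to null over w1118 by the labelled dyes. Outlier spots were left out, and the 2 arrays of replicate 1 were averaged. A gene was read from its brightest kept probe, 14228 of 19984 kept probes had a name, and lmFit and eBayes ran on an intercept over all 9677 genes. Channel signals are after loess and Aquantile. No measured oxidative phosphorylation probe was saturated (0 genes). The number of arrays limits the precision.

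Of 32162 gene probes 19482 were named for 13059 genes through a Release 6 name table. Because the probes were designed on an older genome build, only names, chromosome arms and gene order were taken from it. Genome sequence was not used here.

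The genes and lists were chosen with earlier results of these data known. Named genes are the 4 highest and 4 lowest of each complex, called genes at 1.5-fold or more, genes with probes that passed in opposite directions, measured copies, assembly factors and up to 3 called genes at each end of a pathway list. ND-AGGG, the other called genes and further examples were named after their values were seen. The fit was tested on simulated data. Alternatives covered background, normalization, filter, probe summary, dyes, slide, moderation, pairing, array weights and each replicate left out. Replicate numbers pair the extracts because both of a pair lie on 1 array.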

Additional observations from a re-analysis of the deposited data

Results flagged for a closer look

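Over the 4 arrays, 45 quantities were compared (the ratios of the named genes and the medians of all 70 genes and of each complex), and in 5 of them 1 array lay far from the other 3. Chance alone gives about 1 in 20, and the 4 arrays are 3 replicates and a technical repeat of replicate 1. The dye-swap array was the distant one in 3 cases. For ATPsynF it read -0.229, where the other arrays read 0.312 to 0.395. For UQCR-C2 it read -0.152, where the others read 0.304 to 0.374. The median of the 70 oxidative phosphorylation genes was 0.0233 there, where the others had 0.0756 to 0.0835. The array of replicate 2 was the distant one in the other cases. It read 0.265 for SdhA, where the others read 0.162 to 0.167, and 0.073 for UQCR-Q, where the others read 0.204 to 0.219. The cause of these gaps was not tested.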

How the results depend on the processing

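With replicate 1 taken from its dye-swap array, 10 oxidative phosphorylation genes were higher and 6 lower (25 and 10 as reported), and 1751 and 1665 of all genes. An ordinary test without moderation gave 6 and 1, and 1058 and 1007 of all genes. Median centring gave 14 higher, and 2170 of all genes, against 2724 as reported. Without the pairing of extracts on an array (no replicate block) 14 were higher and 5 lower, and 1824 and 1752 of all genes. This changed the count of oxidative phosphorylation genes by more than 1.5 times, and all 19 were also called as reported. Leaving out each replicate gave 10 to 25 higher and 5 to 14 lower (1752 to 2994 and 1696 to 2802 of all genes). Of the 35 called genes 14 passed in all 3 of these fits and 21 failed in at least 1. The median of the 70 genes, 0.0808 as reported, was 0.0043 with median centring, 0.0449 with no filter on dim probes, 0.0643 on slide 1 alone and 0.0765 to 0.0853 with a replicate left out. With the slide as a block 26 of the 70 genes were higher and 10 lower, and 2840 and 2711 of all genes. With the mean of kept probes COX7C turned to 0.175 and ND-AGGG to -1.26. Over 21 alternatives the medians ran from -0.0219 to 0.0489 for complex I, -0.209 to -0.0416 for complex II, 0.0270 to 0.163 for complex III, 0.110 to 0.254 for complex IV and 0.0879 to 0.213 for complex V. Of the 35 called genes 34 kept their sign in each of 19 alternatives with a test, and ATPsynbeta did not. Not all of the 19 could change a sign. Aquantile, no moderation and no replicate block left the ratios as reported, and Aquantile left the calls as reported too. The authors' table repeated the scanner's processed signals, so the 19 are not separate checks. The cause of these shifts was not tested.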
